A study of Drosophila melanogaster with 2 samples.

Results

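The genes described here code for the structural proteins of the Drosophila melanogaster cuticle. They were taken by symbol from the Ensembl annotation of the fly genome: every protein-coding gene whose symbol starts with Cpr, Lcp, Ccp84A, Pcp, Edg, Acp65A, Twdl or Tweedle. This gave 123 of the 13945 protein-coding genes on the chromosome arms. One of them, Cpr, codes for cytochrome P450 reductase, an electron donor of P450 enzymes and no cuticle protein, and shares only its letters with the rest. The counts below are for the other 122 genes unless the reductase gene is named. By symbol, 70 of the 122 belong to the Cpr group, 25 to Twdl, 15 to Lcp, 7 to Ccp84A and 3 to Edg, and Pcp and Acp65Aa stand alone.

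The assay was chromatin immunoprecipitation followed by sequencing (ChIP-seq), which maps the DNA that a protein sits on. The flies were of the strain CG15336-GFP, which carries an insertion that expresses the product of CG15336 fused to enhanced green fluorescent protein. Whole animals were taken as prepupae, at an age of 2 days by the labels, their sex was not collected, and an antibody against the GFP tag pulled down chromatin sonicated to 200 to 800 bp. The series is 1 group of 2 biological replicates with no second condition, and no control library was analysed here. A peak in whole animals cannot be assigned to a tissue, so binding in the epidermis that makes cuticle cannot be told apart from binding elsewhere. The files hold peaks and no reads, so read depth is unknown.

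The cuticle is a layered sheet of chitin fibres and proteins that epidermal cells secrete and replace at each moult. Most Cpr, Lcp, Ccp84A, Edg, Pcp and Acp65A proteins carry the Rebers and Riddiford domain, which binds chitin, whereas the Tweedle (Twdl) proteins form a separate family that shapes the body wall. Pulses of the steroid hormone ecdysone set the moults, and different cuticle genes are used for the larval, pupal and adult layers. Many of these genes are short and lie in tandem clusters. The Edg genes were named for their dependence on ecdysone in prepupal tissue, and Edg84A is a textbook target of the nuclear receptor FTZ-F1 at this stage.

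Few cuticle genes carried a CG15336-eGFP peak. In the authors' conservative list, which was made from both replicates, 8 of the 122 genes (6.56%, Wilson 95% interval 3.36 to 12.4%) had a peak between 500 bp upstream of a transcript start and the gene end, against 28.6% of all protein-coding genes. A summit, the single base that marks the centre of a peak, lay within 500 bp of a start at 3 cuticle genes (2.46%, 0.84 to 6.98%), against 21.4% of all protein-coding genes. All 8 genes with a peak belong to the Cpr group, and no Lcp, Ccp84A, Edg, Pcp, Acp65A or Twdl gene had one. The groups differ in length, and no difference between them was tested. The stretch searched was under 2 kb at every Lcp, Ccp84A, Edg, Pcp and Acp65A gene, and 12.4% of all protein-coding genes that short had a peak. The 8 cuticle genes with a stretch of 5 to 20 kb are all of the Cpr group, and 4 of them had a peak. The intervals cover counting error only, and no test was run, since the members were chosen with results of these data known. With the P450 reductase gene included, the count was 8 of 123 (6.5%).

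The sequences shown first are those at summits of the cuticle genes on 3L, because they show what lies under the few peaks there were. Each is read from the + strand of Release 6 (dm6) and reaches 50 bases to either side of a conservative summit, with capitals marking runs of 8 or more consecutive A or T.
Cpr72Eb, upstream, chr3L:16364319-16364419: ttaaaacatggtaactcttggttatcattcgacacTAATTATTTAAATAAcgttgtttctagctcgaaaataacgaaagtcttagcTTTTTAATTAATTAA
Cpr62Ba, intron, chr3L:1829699-1829799: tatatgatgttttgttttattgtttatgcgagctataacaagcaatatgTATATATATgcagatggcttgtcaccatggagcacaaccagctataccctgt
Cpr66D, intron, chr3L:8641145-8641245: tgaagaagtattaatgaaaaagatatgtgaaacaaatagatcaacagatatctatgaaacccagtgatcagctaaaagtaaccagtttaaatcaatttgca
Cpr73D, intron, chr3L:16956843-16956943: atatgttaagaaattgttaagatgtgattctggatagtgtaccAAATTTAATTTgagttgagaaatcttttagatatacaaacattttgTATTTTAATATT
Cpr76Bc, intron, chr3L:19524812-19524912: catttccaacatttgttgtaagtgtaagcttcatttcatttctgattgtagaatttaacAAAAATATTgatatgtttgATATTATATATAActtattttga
Cpr76Bc, promoter, chr3L:19520812-19520912: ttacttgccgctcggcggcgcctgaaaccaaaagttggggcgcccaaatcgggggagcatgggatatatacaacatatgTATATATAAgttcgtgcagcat
Cpr73D, second intron summit, chr3L:16941315-16941415: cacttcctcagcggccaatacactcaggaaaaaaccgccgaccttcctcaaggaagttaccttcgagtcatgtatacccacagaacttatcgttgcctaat
Cpr73D, upstream within Ogdh, chr3L:16957772-16957872: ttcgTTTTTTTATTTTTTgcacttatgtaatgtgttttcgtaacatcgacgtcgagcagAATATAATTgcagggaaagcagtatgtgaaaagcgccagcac
Cpr76Bc, flank of the intron peak, chr3L:19525012-19525112: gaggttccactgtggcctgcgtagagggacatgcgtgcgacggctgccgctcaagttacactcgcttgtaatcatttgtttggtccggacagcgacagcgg
These are 9 of the 10 conservative summits at cuticle genes on 3L; the other lies in a 5′ untranslated region of Cpr73D and is not shown. GC content varied widely among the 10. It was 25.7% at Cpr72Eb, 35.6% at Cpr62Ba, 28.7% at Cpr66D and 21.8% at both the first Cpr73D summit and the main Cpr76Bc intron summit. It was higher at the remaining summits, with 47.5% at the second intron summit, 37.6% at the upstream summit and 46.5% at the untranslated summit of Cpr73D, and 49.5% at the promoter and 58.4% at the flank summit of Cpr76Bc. Cpr66D, the second Cpr73D intron summit and the Cpr76Bc flank summit had no run of 8 or more A or T.

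The next sequences are promoters, shown because most cuticle genes had no peak. Edg84A, Edg78E, Edg91, Pcp and Acp65Aa are named for the ecdysone response or for one layer of the cuticle and had none, and Cpr72Eb and Cpr76Bc are given beside them as genes with one. Each is the 100 bases before the start, on the gene's own strand of Release 6, with capitals marking TATAAA and, in Edg84A alone, TGACCTTG, the reverse complement of the FTZ-F1 motif CAAGGTC overlapping the nuclear receptor core AGGTCA.
Edg84A, chr3R:6684345-6684444, + strand: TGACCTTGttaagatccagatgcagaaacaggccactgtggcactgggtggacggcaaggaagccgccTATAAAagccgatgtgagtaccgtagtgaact
Edg78E, chr3L:21297804-21297903, - strand: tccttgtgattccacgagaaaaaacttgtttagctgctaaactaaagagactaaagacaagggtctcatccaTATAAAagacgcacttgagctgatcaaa
Edg91, chr3R:17611512-17611611, - strand: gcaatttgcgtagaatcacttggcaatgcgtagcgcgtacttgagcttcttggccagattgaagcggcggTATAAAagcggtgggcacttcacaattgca
Pcp, chr2L:7021582-7021681, + strand: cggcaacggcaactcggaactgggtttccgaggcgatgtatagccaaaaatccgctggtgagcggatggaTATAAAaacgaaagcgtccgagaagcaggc
Acp65Aa, chr3L:6152746-6152845, - strand: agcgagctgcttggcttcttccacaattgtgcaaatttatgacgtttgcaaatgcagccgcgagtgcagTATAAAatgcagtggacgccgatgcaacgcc
Cpr72Eb, chr3L:16364799-16364898, + strand: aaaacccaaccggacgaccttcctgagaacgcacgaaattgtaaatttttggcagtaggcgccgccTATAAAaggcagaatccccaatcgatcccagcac
Cpr76Bc, chr3L:19520845-19520944, + strand: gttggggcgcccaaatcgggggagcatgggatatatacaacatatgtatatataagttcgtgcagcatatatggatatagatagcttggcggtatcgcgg
TATAAA began at -32 in Edg84A, -28 in Edg78E, -30 in Edg91 and in Pcp, -31 in Acp65Aa and -34 in Cpr72Eb. The promoter of Cpr76Bc held no TATAAA in these 100 bases, and over all cuticle genes 57.4% had it between -40 and -16.

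The replicates, each deposited as a list of its own, gave similar counts. Replicate 1 had a peak at 9 of the 122 cuticle genes (7.38%, 3.93 to 13.4%), against 22.9% of all protein-coding genes, and replicate 2 at 8 (6.56%, 3.36 to 12.4%), against 26.9%. Summits that close to a start were found at 1 cuticle gene (0.82%, 0.145 to 4.5%) in replicate 1, against 15.6% of all protein-coding genes, and at 4 (3.28%, 1.28 to 8.13%) in replicate 2, against 20.2%. A less strict list made from both replicates had peaks at 10 cuticle genes (8.2%, 4.51 to 14.4%), against 31.8%. Of the 8 genes of the conservative list, 7 had a peak in each replicate: Cpr50Ca, Cpr51A, Cpr62Ba, Cpr66D, Cpr72Eb, Cpr73D and Cpr76Bc. The eighth, Cpr47Ec, had one in replicate 2 and none in the list of replicate 1. In all 4 lists together, 11 cuticle genes had a peak. The share of all protein-coding genes over the 4 lists together was not counted.

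Cuticle genes are short, and a short window has less room for a peak. The median window from 500 bp upstream to the gene end was 1454.5 bp for cuticle genes and 2666 bp for all protein-coding genes, so the shares were also set beside genes of the same length. With windows under 2 kb, 2 of 92 cuticle genes (2.17%, 0.598 to 7.58%) had a conservative peak, against 592 of 4784 protein-coding genes (12.4%, 11.5 to 13.3%). Between 2 and 5 kb it was 2 of 22 (9.09%, 2.53 to 27.8%), against 24.5%, and the interval reached past that value. Between 5 and 20 kb it was 4 of 8 (Wilson 95% interval 21.5 to 78.5%), against 49.6%. The lower share was therefore seen among the short genes, which are 92 of the 122, and was not detectable among the 8 long ones.

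Summits near a start followed the same order of length. None of the 92 short cuticle genes had one (upper bound 4.01%), against 10.2% of short protein-coding genes, and none of the 22 genes of 2 to 5 kb did (upper bound 14.9%), against 20.8%. Among the 8 longer cuticle genes, 3 had a summit near a start (37.5%, 13.7 to 69.4%), against 34.1%. The number of starts changed the picture little: among genes with 1 start and a window under 2 kb, 2 of 88 cuticle genes had a peak (2.27%, 0.625 to 7.91%), against 11.2%.

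**Figure D1:**
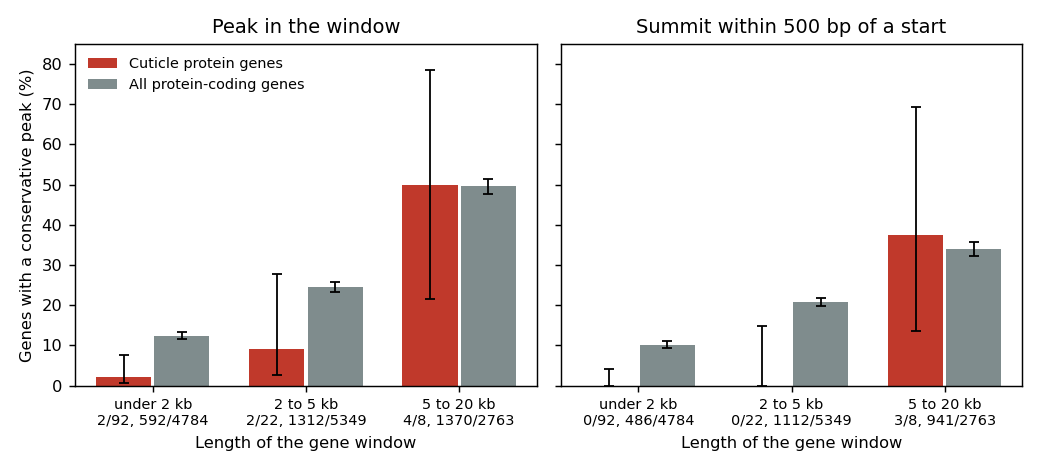
Share of genes with a conservative peak (left, in the window from 500 bp upstream to the gene end; right, a summit within 500 bp of a start), in percent on a linear axis, for cuticle protein genes (red) and all protein-coding genes (grey) in 3 classes of window length. Bars are shares, error bars Wilson 95% intervals, and the counts stand under the axis; the cuticle genes lie at 2.17% against 12.4% in the shortest class and at 4 of 8 genes against 49.6% in the longest.

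Repeated sequence was measured as the share of a window's 31-base words that occur elsewhere on the arms. At least 10% of the window was repeated at 17 of 122 cuticle genes (13.9%), against 6.6% of all protein-coding genes. It was 89.5% at Lcp65Ab1 and Lcp65Ab2, 78.7% at Cpr65Ax2, 75.3% at Cpr65Ax1 and 37.8% at Lcp65Ag1, all of them in 1 cluster. Of the 105 cuticle genes under 10%, which are of all lengths, 7 had a conservative peak (6.67%, 3.27 to 13.1%). The share was 29.2% of all protein-coding genes under 10% and 13.3% of the short ones. Of the 17 with 10% or more repeated, 1 had a peak (5.88%, 1.05 to 27.0%). In that class it was 20.5% of all protein-coding genes and 2.11% of the short ones. The 1 cuticle gene was Cpr73D, whose window is 19090 bp long. The other cuticle genes of that class are all short, and none had a peak. Beside 2.11%, so few genes can show neither a lower nor an equal share. The part of repeats in the low share was not tested.

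Cpr62Ba, on 3L with the summit at base 1829749 of dm6, held the cuticle peak with the highest signal in the conservative list and in replicate 2. Its signal, a value of the authors on a scale the files do not state, was 202.3 in the conservative list, where it ranked 2388 of 9295. Replicate 1 listed the peak at 86.2 (rank 2860), below those of Cpr72Eb and Cpr50Ca, and replicate 2 at rank 2176. Like most members of the group, Cpr62Ba codes for a chitin-binding protein, and the summit lay in an intron, between its starts and 807 bp upstream of the nearer one. Signals are on the scale of their own list, and only ranks within a list are read.

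Cpr72Eb was the only short cuticle gene besides Cpr47Ec with a conservative peak. Its peak spanned 3L 16364177 to 16364560, with the summit 530 bp upstream of the start. The signal was 163.0 in the conservative list, rank 3262. It was 102.2 in replicate 1, rank 2247, and 63.3 in replicate 2, rank 5108, so the peak stood higher in the order of replicate 1. The conservative and replicate 1 summits are just outside the 500 bp window around the start, 162 of the 384 bp of the conservative peak lie inside it, and the replicate 2 summit, at 498 bp, is inside too.

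Cpr50Ca, on 2R, had a summit 355 bp upstream of its start in the intergenic space. The conservative signal was 179.2, rank 2856, with 93.9 in replicate 1 and 79.3 in replicate 2. It is among the longest of the cuticle genes, and the peak lies at its promoter and not in its long introns. Cpr51A, also on 2R, had its summit 1485 bp into the gene, in the intron. The conservative signal was 154.0, with 82.5 in replicate 1 and 70.9 in replicate 2. That summit is nearer to the start of the neighbouring gene CG30197, 304 bp upstream of it, than to the start of Cpr51A, and to which gene it belongs was not tested.

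Cpr66D had a single summit in its intron, 756 bp downstream of the start, with a conservative signal of 129.0, rank 4378. The signal was 68.3 in replicate 1 and 60.5 in replicate 2. The summits of the replicates lay close by, at 770 bp in replicate 1 and 726 bp in replicate 2.

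Cpr76Bc had 3 conservative peaks. The strongest, with a signal of 136.8, lay in an intron 3595 bp downstream of the nearer start and was in both replicates, at 67.3 in replicate 1 and 68.1 in replicate 2. The next, with a signal of 88.3, had its summit 83 bp upstream of a start, in the promoter, and was listed in replicate 2 at 48.0 and not in replicate 1. The last, at 9.75, overlapped the strongest one and sat on its flank.

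Cpr73D had 4 conservative peaks, and its gene overlaps Ogdh, which codes for a dehydrogenase of the citric acid cycle. The strongest ranked 5801 in the conservative list and lay in introns of both genes, 796 bp downstream of the Cpr73D start and 546 bp upstream of an Ogdh start, with 46.6 in replicate 1 and 58.6 in replicate 2. The next, at 95.9, lay in an intron of Cpr73D alone, with 43.7 in replicate 1 and 53.4 in replicate 2. A peak of 72.8 lay 133 bp upstream of the Cpr73D start inside an intron of Ogdh, and was listed in replicate 2 at 52.0 and not in replicate 1. The fourth, at 9.0, overlapped the strongest one. Except for the peak of 95.9, the peaks of Cpr73D cannot be told apart from peaks of Ogdh, and 47.6% of the Cpr73D window is repeated elsewhere.

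Cpr47Ec, on 2R, had a summit 48 bp past the end of the gene, 918 bp from its start. The conservative signal was 108.0, rank 5407, and replicate 2 listed it at 67.5. The peak overlaps the end of a short gene and is not near its promoter.

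**Figure D2:**
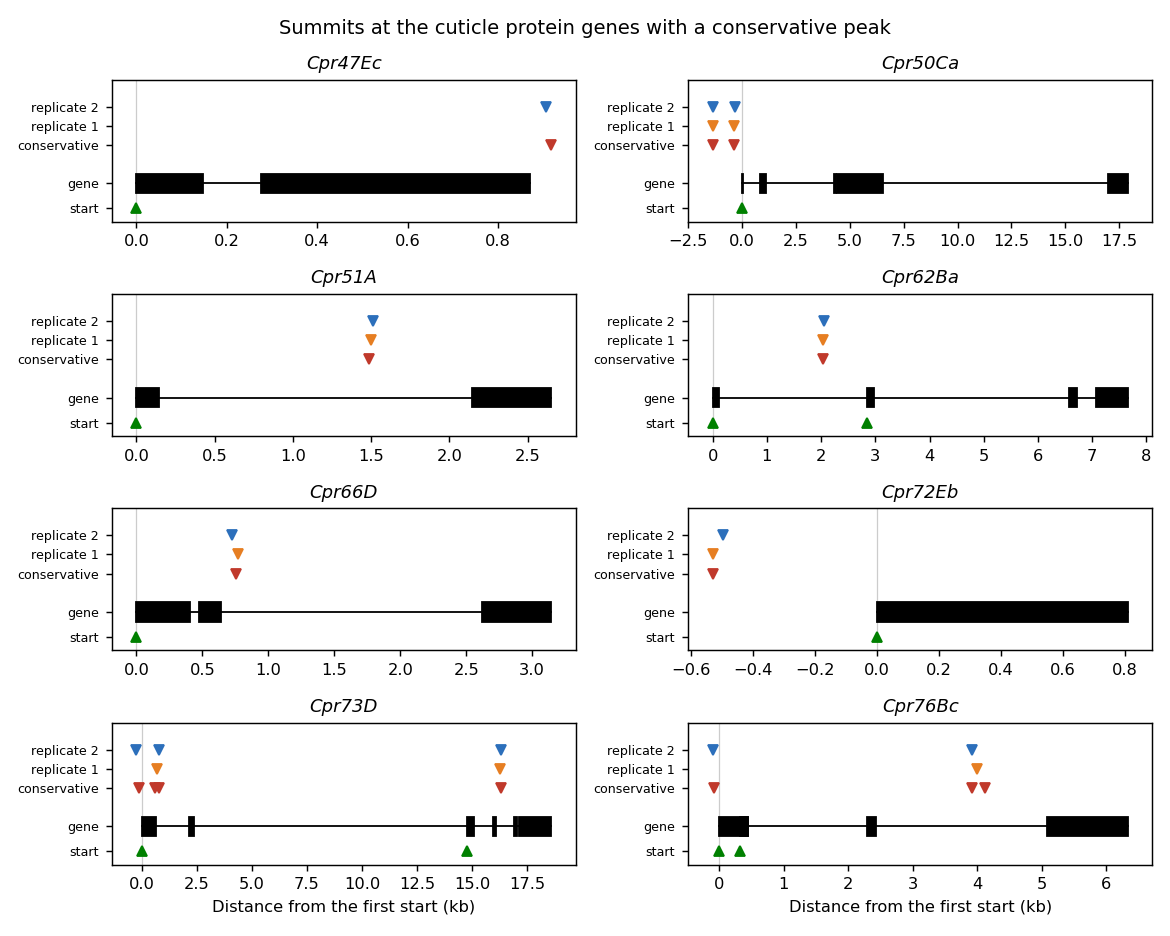
Maps of the 8 cuticle genes with a conservative peak, each with distance from its first start in kb along the gene's direction, exons as black boxes, introns as a line, starts as green triangles, and summits of the conservative list (red), replicate 1 (orange) and replicate 2 (blue). In 7 of the 8 genes a summit of each replicate lies beside a conservative one, and Cpr47Ec has none from the thresholded list of replicate 1.

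Across these genes, 13 conservative peaks overlapped a cuticle gene window, of which 8 had their summit in an intron, 4 between genes, 1 in a 5′ untranslated region and none in coding sequence. Of the 13, 2 overlapped another with a higher signal, and the nearest start to 3 was that of another gene. These places were not set beside those of the whole list. The signals of the 13 were of middling rank: 6 were above the median of the list, 123.1. GC content within 50 bp of the summit averaged 34.9% ± 12.2 (SD, n = 13) at cuticle genes and 33.9% ± 10.4 over all 9295 conservative summits. It was below that of the flanks 300 bp away at 10 of the 13 summits, and the mean difference from the flanks was -9.33 percentage points over the 13 and -10.4 over all summits. The flanks were also richer at 10 of 10 member summits in replicate 1 and 10 of 11 in replicate 2. How many of all summits lie below their flanks was not counted, so these counts are not read as particular to cuticle genes. The longest run of A or T had a median of 10 bases at cuticle summits and 10 at all summits. In base composition the few peaks at cuticle genes were close to the rest of the list.

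Peaks below the authors' threshold were also counted. The irreproducible discovery rate (IDR) ranks peaks by how well they repeat, and the lists above hold peaks with an IDR of 0.01 or less, which is 2 or more on the -log10 scale. The full ranked lists hold 44166 peaks on the arms in replicate 1 and 65734 in replicate 2, most of which are below that threshold. No ranked peak in either replicate was found at 56 of the 122 cuticle genes (45.9%, 37.3 to 54.7%), against 25.0% of all protein-coding genes, and one in both at 31 (25.4%, 18.5 to 33.8%), against 57.5%. Among windows under 2 kb, 54.3% of cuticle genes (44.2 to 64.1%) had none in either, against 42.5%. A ranked peak was found at 45 cuticle genes in replicate 1 (36.9%), against 63.5% of all protein-coding genes, and at 52 in replicate 2 (42.6%), against 69.0%. For windows under 2 kb it was 27.2% against 41.4% in replicate 1, and 35.9% against 50.6% in replicate 2. Cpr47Ec, without a peak in the thresholded list of replicate 1, had a ranked peak there in its window, at a -log10 IDR of 1.77.

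Outside the conservative list, the best ranked cuticle genes were Cpr49Ah, Cpr97Ea, Cpr97Eb and Cpr66Cb. Cpr49Ah reached a -log10 IDR of 2.59 in replicate 1 and 0.27 in replicate 2, and a conservative summit with a signal of 123.4 lay 730 bp upstream of its start, past the edge of the window. Cpr97Ea had 2.02 in replicate 1 and 1.31 in replicate 2, with a peak in its intron that is in the list of replicate 1 at 40.4 and in the less strict list at 65.8. Cpr97Eb, next to it, had 1.29 in replicate 1 and 1.77 in replicate 2. Cpr66Cb had 0.75 in replicate 1 and 1.60 in replicate 2, and a peak in the less strict list, at 64.2, with its summit 322 bp upstream of the start. The P450 reductase gene Cpr would have been on top of this group, with 2.67 in replicate 1 and 1.94 in replicate 2, and a replicate 1 peak 117 bp upstream of a start at 45.8. Cpr49Ah has its conservative peak past the edge of the window, and its replicate 1 peak, with the summit 561 bp upstream, reaches into it. The values of the others describe genes near the threshold and were not read as peaks of the conservative kind.

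**Figure D3:**
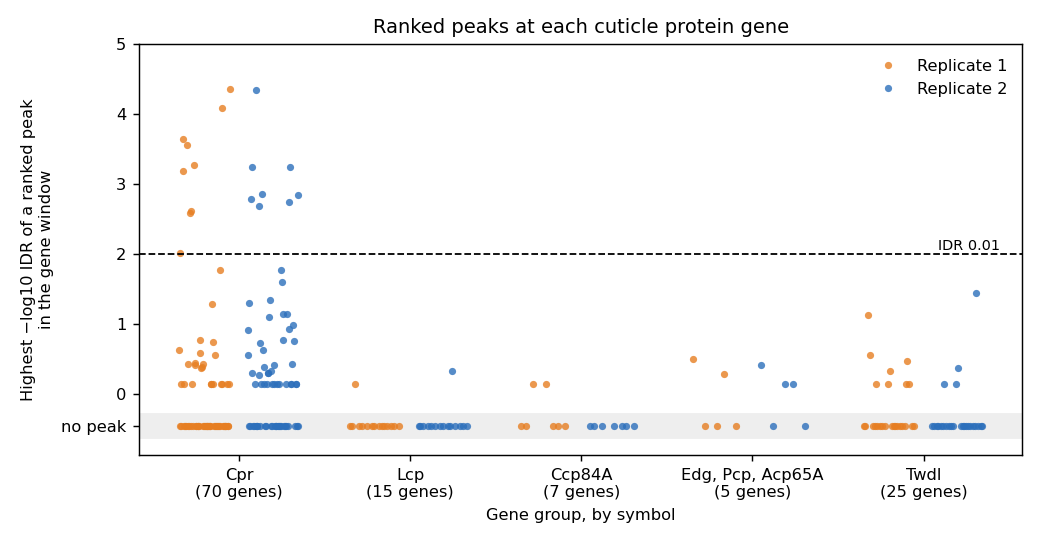
Highest -log10 IDR of any ranked peak in the window of each of the 122 cuticle genes, by symbol group, with 1 point per gene in replicate 1 (orange) and replicate 2 (blue), genes without a ranked peak in the grey band, and the threshold of 2 dashed. Points above the dashed line occur in the Cpr group, which reaches 4.36 in replicate 1 and 4.35 in replicate 2, and in no other group.

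The Tweedle genes had weak entries or none. Of the 25 Twdl genes, 8 had a ranked peak in replicate 1 and 4 in replicate 2. Over all protein-coding genes it was 63.5% in replicate 1 and 69.0% in replicate 2, and 41.4% and 50.6% for windows under 2 kb. The highest -log10 IDR was 1.13 at TwdlG in replicate 1 and 1.44 at TwdlE in replicate 2, both under the threshold of 2. TwdlD, whose mutations change the shape of the larva, had 0.15 in each replicate. Twdl genes lay a median of 19416 bp from the nearest conservative summit, and 12 of the 25 lie in 1 cluster. The median was 3685 bp over all protein-coding genes and 6332 bp over those with windows under 2 kb.

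The larval and Ccp84A genes also had few entries. Of the 15 Lcp genes, 1 had a ranked peak in each replicate, Lcp65Ab1 in replicate 1 and Lcp9 in replicate 2, at a -log10 IDR of 0.15 and 0.33. Lcp1, Lcp2, Lcp3 and Lcp4, which code for abundant larval cuticle proteins and lie side by side, had no ranked peak in either replicate. Their nearest conservative summit was 24104 to 31356 bp away, 154 bp upstream of Mal-A5, with a signal of 758.9. Of the 7 Ccp84A genes, 2 had a ranked peak in replicate 1, at 0.15, and none in replicate 2. All Lcp and Ccp84A windows are under 2 kb, and of all protein-coding genes that short 41.4% had a ranked peak in replicate 1 and 50.6% in replicate 2.

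The genes named for the prepupal response to ecdysone had no peak in the window in any of the 4 lists. Edg84A had no ranked peak in either replicate, and its nearest conservative summit was 26840 bp upstream. Edg91 had none either, with a summit 4534 bp upstream. Edg78E had a ranked peak in each replicate, at a signal of 21.3 and a -log10 IDR of 0.29 in replicate 1 and 5.74 and 0.15 in replicate 2. Pcp, a pupal cuticle gene that lies within an intron of Gart, had no ranked peak in replicate 1 and 7.86 with 0.15 in replicate 2. Its nearest summit, 1683 bp downstream of the gene, was 255 bp upstream of a Gart start. Acp65Aa, an adult cuticle gene, had 24.4 with 0.51 in replicate 1 and 15.8 with 0.42 in replicate 2.

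The distance to the nearest conservative summit had a median of 9167.5 bp (interquartile range 3157.75 to 20598.25) over the 122 cuticle genes, measured from the gene's edge. It was 3685 bp over all protein-coding genes and 6332 bp over those with windows under 2 kb. In replicate 1 it was 11131.5 bp for cuticle genes, against 5587 bp for all genes and 8659 bp for short ones, and in replicate 2 it was 10007 bp, against 4194 and 7155.5 bp. A summit lay within 5 kb of 40 cuticle genes (32.8%), against 56.2% of all protein-coding genes, and farther than 20 kb from 33 (27.0%), against 15.2% of all and 21.9% of short protein-coding genes. In replicate 1 the last of these shares was 28.7% for cuticle genes, against 20.1% of all and 27.9% of short genes, and in replicate 2 it was 27.9%, against 17.0% and 24.1%. With only peaks at an IDR of 0.001 or less, the median distance was 16272 bp for cuticle genes, against 7354 bp for all genes and 10627 bp for short ones. For the 92 cuticle genes with windows under 2 kb it was 18607.5 bp. The other cuticle values here are over all 122 genes and not over the short ones alone. Of the genes without a peak, those nearest to a summit were Cpr76Bb, Cpr72Ea and Cpr49Ah, at 443, 619 and 730 bp. Those farthest were Ccp84Aa, Ccp84Ab and Ccp84Ac, at 46479, 44363 and 37543 bp. Between 20 and 50 kb the curve of the cuticle genes crossed the others. No cuticle gene lay farther than 50 kb from a conservative summit, against 5.79% of all protein-coding genes, but 1 did in replicate 1 (0.82%, against 6.54%) and 8 did in replicate 2 (6.56%, against 6.74%).

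**Figure D4:**
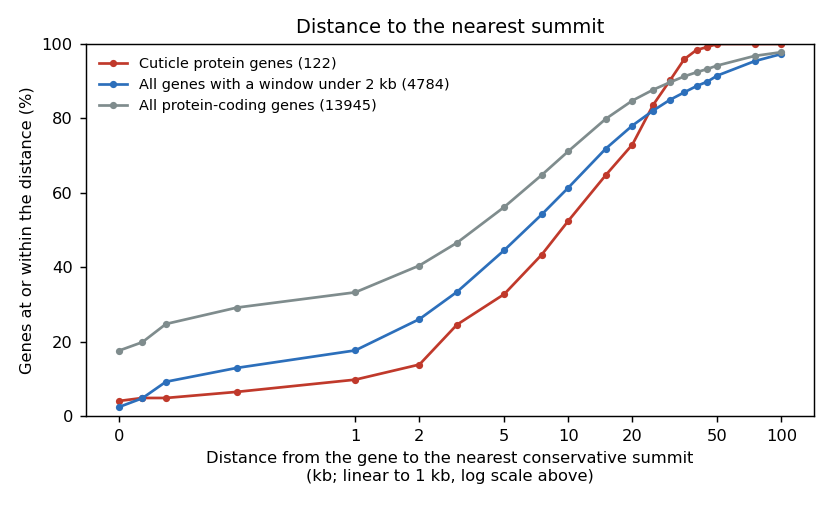
Cumulative share of genes in percent against distance from the gene to the nearest conservative summit in kb (linear to 1 kb, log scale above), for 122 cuticle protein genes (red), 4784 protein-coding genes with windows under 2 kb (blue) and all 13945 protein-coding genes (grey). At 5 kb the cuticle genes are at 32.8%, below the short genes at 44.6% and all genes at 56.2%.

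Neighbouring cuticle genes share their surroundings and are not independent of each other. Runs of 3 or more cuticle genes with gaps of at most 20 kb formed 15 clusters, which held 88 of the 122 genes in 0.243 Mb. They held 10 conservative summits, or 41.1 per Mb, against 69.4 per Mb over the arms. Replicate 1 gave 24.7 per Mb against 49.9, and replicate 2 gave 32.9 per Mb against 61.3. Of the 15 clusters, 8 with 42 genes held no summit in any of the 4 lists, and 6 held a summit in each replicate. The clusters span 4.7 to 38.5 kb. How many stretches of that length elsewhere on the arms hold no summit was not counted, so 8 of 15 is not read as unusual.

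The largest empty cluster was that of the Tweedle genes from TwdlM to TwdlD, with 12 genes in 21.9 kb. Its nearest summit, 13692 bp past TwdlD, lies 1694 bp upstream of Tb, which codes for another Tweedle protein under a symbol outside the list. The cluster from Edg84A to Ccp84Aa held 8 genes in 20.5 kb, and the gap between the summits on its sides was 105.5 kb. The cluster with the most genes, from Lcp65Ag3 to Cpr65Az, held 18 genes in 31.2 kb and 1 summit, which lay 95 bp upstream of the noncoding gene lncRNA:CR45421 with a signal of 145.9. The cluster from Cpr76Ba to Cpr76Bd held the most summits, 3 in 20.7 kb, all of them at Cpr76Bc and 1 of them on the flank of another. The shortest clusters had a single summit or none, with 1 in 4.7 kb from Cpr72Ea to Cpr72Ec.

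**Figure D5:**
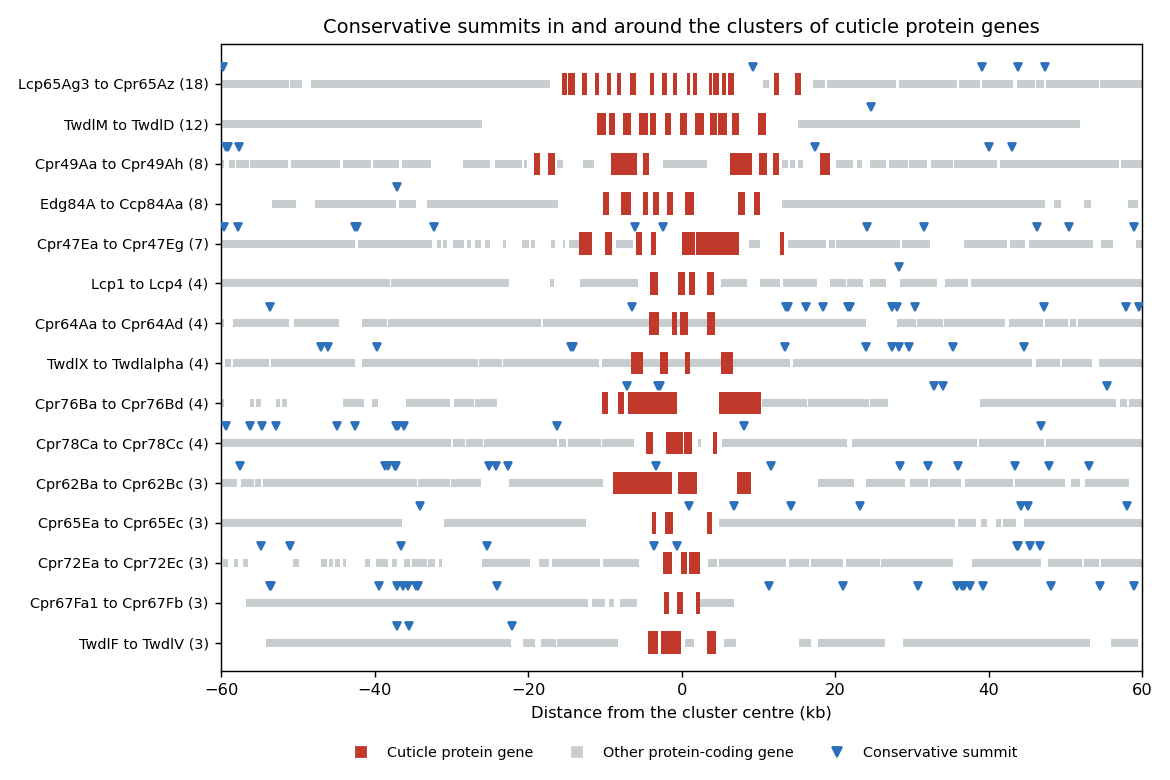
The 15 clusters of cuticle protein genes (red boxes; number of genes in parentheses), with distance from the cluster centre in kb, other protein-coding genes as grey boxes and conservative summits as blue triangles above. The clusters of Tweedle genes from TwdlM to TwdlD and of Ccp84A genes from Edg84A to Ccp84Aa hold no triangle, and that from Cpr76Ba to Cpr76Bd holds 3.

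Genes next to the runs of cuticle genes had a share with a peak close to that of all genes. Of 93 protein-coding genes that flank a run, 28 had a conservative peak in the window (30.1%, 21.7 to 40.1%), against 28.6% of all protein-coding genes. A summit within 500 bp of a start was found at 15 of the 93 (16.1%, with an upper bound of 24.9%), against 21.4%. Of the 27 flanking genes with windows under 2 kb, 4 had a conservative peak in the window (14.8%, 5.92 to 32.5%), against 12.4% of short protein-coding genes.

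A TATA box was the feature most cuticle promoters shared. TATAAA between 40 and 16 bases before the first start, on the gene strand, was found at 70 of 122 cuticle genes (57.4%), against 1078 of 13945 protein-coding genes (7.73%). With that TATA box, 0 of 70 cuticle genes (Wilson 95% upper bound 5.2%) and 87 of 1078 protein-coding genes (8.07%) had a promoter summit. Among genes without it, 3 of 52 cuticle genes (5.77%) and 22.5% of protein-coding genes did. Promoter GC, from 250 bases before to 50 after the start, averaged 44.3% ± 5.85 (SD, n = 122) for cuticle genes and 39.1% ± 7.74 for all. Whether either property bears on the lack of peaks was not tested.

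Other short motifs were searched on both strands of the same 300-base promoters. The FTZ-F1 motif CAAGGTC was in 3 cuticle promoters (2.46%), against 1.39% of all promoters: Edg84A at -99, Cpr47Ec at -110 and TwdlD at -122. The receptor core AGGTCA, which overlaps it where an A follows, was in 6.56% against 5.88%, and GAGAG, the core of GAGA factor sites, in 30.3% against 29.7%. TATCGATA, the DNA replication-related element typical of housekeeping promoters, was in 1 cuticle promoter (0.82%), against 9.36%. AACCGGTT, a form of the Grainy head site, was in none, against 0.753%. AAAAAAAA was in 21 cuticle promoters (17.2%), against 2225 of 13945, and CACACACA in 5.74% against 4.02%. A match says only that the letters are there, and most of these shares are close to those of all promoters.

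Other genes of cuticle formation, in lists by function, had higher shares with a peak than the 6.56% of the cuticle protein genes, and longer windows. Of 20 regulators of moulting and epidermal fate, 19 had a conservative peak, and 19 in each replicate. They are long genes, with a median window of 38021.5 bp, and 68.2% of all protein-coding genes with windows over 20 kb had a peak. The highest signals were at Hr4 (894.5), Eip75B (803.2) and Hr3 (625.0), nuclear receptors of the ecdysone response, and at tai (645.0), a coactivator of the ecdysone receptor. At ftz-f1, the gene for the factor that acts on Edg84A, the window held 20 conservative peaks with a highest signal of 313.1. Kr-h1 had none.

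The enzyme and matrix lists had shares between those of the cuticle protein genes and the regulators. Of 7 genes of chitin synthesis and assembly, 4 had a peak (57.1%, Wilson 95% interval 25.0 to 84.2%): mmy (228.2), Gfat2 (139.4), exp (98.5) and knk (74.5), whereas kkv, the chitin synthase of the epidermis, had none in the conservative list. Of 20 genes for chitinases, chitinase-like Idgf proteins and chitin deacetylases, 6 did (30.0%, 14.5 to 51.9%). The highest signals were at Cht7 (537.9), Idgf2 (431.9), Cht11 (210.0) and Idgf4 (96.8). Of 17 genes of sclerotization and pigment, 4 did (23.5%, 9.56 to 47.3%), with PPO3 at 228.2, t at 171.7, Pu at 141.2 and amd at 70.8, and ple, Ddc, e and y had none. Of 19 matrix genes outside the symbol list, 5 did (26.3%, 11.8 to 48.8%), with dpy at 544.4, dy at 461.3, pio at 247.2 and tyn at 193.3. The median windows of these lists were 5867 bp for chitin synthesis and 3681.5 bp for the chitinase, Idgf and deacetylase list. They were 4324 bp for sclerotization and 7170 bp for matrix genes, against 1454.5 bp for the cuticle protein genes. Over all protein-coding genes the share with a peak was 24.5% for windows of 2 to 5 kb and 49.6% for windows of 5 to 20 kb. No difference between lists was tested.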

How the data were processed

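Anti-GFP ChIP-seq peaks from 2 replicate libraries of 1 group were used as deposited, on dm6 per the labels. Aligner, peak caller and versions: not given in the sources used here. The deposited listing names IDR-thresholded and ranked lists, called per replicate and on both replicates. The signal of a peak is the authors' value on an unstated scale, used only to describe and rank peaks within a list. A deposited score column, by its values a rescaled IDR, was not printed. For ranked peaks the authors deposited a −log10 global IDR, at 2 or more for each thresholded peak. The ranked list from both replicates also holds 8 unnamed columns, which were not used. Depth cannot be read from peak lists.

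Genes were those of Ensembl release 115 (BDGP6, version 6.54), and sequence that of the RefSeq Release 6 genome. A window runs from 500 bp upstream of a start to the gene end, and an overlap of 1 bp counts. Coordinates are 1-based. For peaks whose summit offset passed the peak end, the last base was used. The code ran in Python 3.11.15 (pandas 2.3.3, numpy 2.4.6, matplotlib 3.10.9, scipy 1.17.1) and was tested on simulated data.

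The members and the lists were chosen with earlier results of these data known, including that cuticle genes had few promoter peaks, so that pattern is described and has no test. Named genes are all members with a conservative peak, the Edg genes, Pcp, Acp65Aa, Lcp1 to Lcp4 and Cpr, the 5 best ranked without a conservative peak, the 3 nearest to and the 3 farthest from a summit, and up to 4 genes per other list by signal. Other genes named, such as kkv, Kr-h1, ftz-f1, TwdlG, TwdlE, TwdlD, Lcp65Ab1, Lcp9 and those of the repeats, were chosen after their values were seen. Of the listed names Cht, Dat and Cpg matched no gene. Alternatives were the other lists, each replicate alone, a stricter IDR, other windows, other cluster gaps and leaving out the P450 reductase gene.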

Additional observations from a re-analysis of the deposited data

How the results depend on the processing

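Values here are for all 123 genes of the symbol rule. The count of genes with a peak in the window, 8, stayed within 1.5 times in every alternative run: 11 with the less strict list, 6 at an IDR of 0.001 or less, 7 and 10 with windows from 200 and 1000 bp upstream, 6 with the summit in the window, and 8 to 10 with 1 replicate alone. The count with a summit within 500 bp of a start, 3, was 5 with the less strict list, 1 at an IDR of 0.001 or less and 2 to 4 with 1 replicate alone. The median distance to a summit, 9369 bp, was 8209 bp with the less strict list, 15888 bp at an IDR of 0.001 or less, 10479 bp from the start and 10115 to 11124 bp with 1 replicate alone. Conservative summits in clusters, 41.1 per Mb, were 24.7 per Mb at an IDR of 0.001 or less and 24.7 to 32.9 per Mb with 1 replicate alone. A shorter list has fewer summits, which by construction lengthens distances and lowers densities. Counts were held to a margin of 1.5 times, and distance and density to the SD between the replicates, 713 bp and 5.8 per Mb. Of 26 alternative values, 16 were within these margins and 10 were not. No paired analysis was possible because the series has 1 group. The counts at cuticle genes are small, and a peak list gives no depth, so a gene without a peak is one with none past the authors' threshold.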

Other observations

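By arm, 5 of the 47 cuticle genes on 3L had a conservative peak (10.6%, Wilson 95% interval 4.63 to 22.6%), against 29.6% of all protein-coding genes there, and 3 of the 27 on 2R did (11.1%, 3.85 to 28.1%), against 27.5%. None of the 33 on 3R did (upper bound 10.4%), against 27.7%. For the 8 on X and the 7 on 2L, where none did either, the upper bounds were 32.4% and 35.4%, above the 32.2% and 27.3% of all protein-coding genes there. Among windows under 2 kb the gaps were smaller. On 3R 0 of 27 cuticle genes had a peak (upper bound 12.5%), against 12.7% of short protein-coding genes there. On 3L 1 of 38 did (2.63%, 0.466 to 13.5%), against 12.1%, and on 2R 1 of 17 (5.88%, 1.05 to 27.0%), against 12.8%. The median distance to a summit was 5338 bp for the cuticle genes on 3L, 8124 bp on 2R and 21790 bp on 3R, where the Ccp84A genes and most Tweedle genes lie. No difference between arms was tested.

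Some conservative summits lay upstream of cuticle genes and outside their windows. The cluster from Cpr65Ea to Cpr65Ec held 1 conservative summit, 2120 bp upstream of Cpr65Eb with a signal of 80.8, and none in either replicate's own list. A summit of signal 97.6 lay 898 bp upstream of Cpr47Ed, which had a -log10 IDR of 0.78 in replicate 1 and 1.11 in replicate 2 within its window. Cpr62Bc and Cpr100A had summits 2727 and 2834 bp upstream, with signals of 193.9 and 74.8. TwdlT had one 8281 bp upstream, with a signal of 79.5. A window that ends 500 bp upstream of the start does not count such summits.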
